A study of Saccharomyces cerevisiae with 15 samples.

Results

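The transcripts described here are the 200 whose share of sequencing reads differed least between 5 strains of the budding yeast Saccharomyces cerevisiae. For each gene, reads were scaled to CPM, counts per 1000000 reads of the library. The level of a strain was the log2 of its mean CPM over 3 libraries plus a pseudocount of 1. Of 5980 genes measured, 4202 averaged at least 20 CPM in every strain, and the 200 of these with the smallest range, the highest minus the lowest of the 5 strain levels, were taken. The strain means therefore chose the members, and every difference between strains given for them is a description and not a test. The name "most stable" held on this scale of read shares. On a scale that adjusts for library composition, 17 of the 200 would be chosen again.

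Transcript levels came from RNA sequencing of 15 libraries, 3 from each strain, with total RNA taken from cells growing exponentially in rich glucose medium (YPD) at 30 °C. BY47419, the starting strain, expresses the genome-editing nuclease spCas9-NG. C0, the original β-carotene producer, expresses spCas9-NG together with HMG1, CrtE, CrtYB and CrtI, where HMG1 encodes an HMG-CoA reductase, which makes mevalonate, and the Crt genes make carotenoids. C3-06 and C5-63 are labelled as evolved strains in process and C7-143 as the final evolved strain, and all of them carry the same added genes as C0. All 5 strains share the S288C background and the alleles his3Δ1, leu2Δ0, met15Δ0 and ura3Δ0. Nothing in the labels says that a strain's 3 libraries were grown as separate cultures, so p-values measure no more than how these samples vary, which could be technical variation.

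A yeast gene is usually called stable when its transcript keeps the same level in growing cells under many conditions, and such genes tend to encode machinery that every cell needs, from transcription and RNA processing to protein turnover. Stable transcripts serve as references in RT-qPCR, where a target is expressed relative to them. In yeast, promoters with a TATA box are known more from stress-responsive and regulated genes, and promoters without one more from constitutively transcribed genes.

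CPM is a share of a library's reads. RNA per cell was not measured, and fewer cells of a kind and less RNA per cell cannot be told apart in such bulk samples. The 15 libraries held 16144808 to 21586409 reads on genes, and 5839 to 5871 genes had at least 1 read. A member had 288 to 25751 reads in a library, with a median of 1661. Means are given ± SD over the 3 libraries of a strain. The 7 markers of haploid mating type a summed to 384 to 1551 CPM in a library. The 4 of mating type alpha summed to 60.9 to 131 CPM and the 7 of sporulation to 101 to 175 CPM. Among the alpha genes, SAG1 averaged 71.3 CPM, STE3 14.5, MF(ALPHA)2 7.21 and the pheromone gene MF(ALPHA)1 1.53. The a genes averaged from 29.9 CPM for ASG7 to 395 for STE2. Replicate 1 of C3-06 and replicate 2 of BY47419 stood apart from the rest: the median absolute deviation of members from their strain mean was 0.1002 and 0.0778 log2 there, against 0.0306 to 0.0684 in the other 13 libraries. With the choice repeated without replicate 1 of C3-06, 178 of the 200 were chosen again, and without replicate 2 of BY47419, 168. Over all 15 libraries, each left out in turn, 168 to 192 were chosen again. Without replicate 2 of C5-63 the count was 174, so 178 does not mark out replicate 1 of C3-06.

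Upstream sequence is shown for 4 of the 12 members with the smallest range, picked because each carries a different one of the motifs counted in the last paragraphs. Those motifs, TATAAA apart, were in the 250 bases before the start codon of 6 of the 12 and in none of those of TRM12, DOS2, MRP4, CDC43, RSM25 and FRK1. Each line holds 150 bases of the R64 genome, from 250 to 101 bases before the start codon, read 5′ to 3′ on the gene's own strand. GCD14, at chrX:186780-186929 on the minus strand, holds an RRPE motif, an element of ribosome biogenesis genes, which is written in capitals in its reverse complement. SRB4, at chrV:198562-198711 on the plus strand, holds a run of TATA octamers, in capitals. NUP53, at chrXIII:564185-564334 on the plus strand, holds TTACCCG, the motif of the general regulatory factor Reb1, in capitals, and its window overlaps the neighbouring gene YIM1. FCY1, at chrXVI:676915-677064 on the plus strand, holds AGGGG, the stress response element (STRE), in capitals.
GCD14: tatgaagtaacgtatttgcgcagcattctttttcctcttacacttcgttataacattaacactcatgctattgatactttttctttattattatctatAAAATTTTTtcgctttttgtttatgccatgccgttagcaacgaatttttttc
SRB4: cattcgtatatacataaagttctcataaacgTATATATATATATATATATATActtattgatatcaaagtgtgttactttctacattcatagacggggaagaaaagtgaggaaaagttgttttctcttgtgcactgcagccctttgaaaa
NUP53: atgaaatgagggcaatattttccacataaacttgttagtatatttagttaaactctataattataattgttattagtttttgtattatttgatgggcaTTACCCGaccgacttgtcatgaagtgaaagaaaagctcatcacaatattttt
FCY1: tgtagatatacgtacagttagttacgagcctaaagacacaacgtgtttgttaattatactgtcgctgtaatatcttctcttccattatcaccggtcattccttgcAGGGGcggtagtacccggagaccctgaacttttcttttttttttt
Of the other members with a motif, SLD3 held a TATA octamer and UFD2 an AGGGG that lies outside the stretch of this length. A match to letters is a description of the window and not a measured binding site.

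The members' ranges ran from 0.0818 to 0.290 log2, a 1.06-fold to 1.22-fold difference between the highest and the lowest strain, with a median of 0.235. Among the other 4002 genes above the minimum level, the range ran from 0.290 to 8.996 log2, with a median of 0.997. The members were the low end of a continuous distribution. Of the 4202 genes, 4 had a range up to 0.1 log2, 57 up to 0.2, 222 up to 0.3, 825 up to 0.5 and 2206 (52.5%) up to 1. The last members inside the limit were MPT5, a Puf-family RNA-binding protein, at 0.2875, ABD1, the mRNA cap methyltransferase, at 0.2879, PDC2, a regulator of pyruvate decarboxylase genes, at 0.2880, TIM44, of the mitochondrial import motor, at 0.2887, and TFB4, of transcription factor TFIIH, at 0.2901. The first genes outside it were PTK2 at 0.2904, GCN2 at 0.2907, NMA2 at 0.2917, YMR027W at 0.2925 and ELP2 at 0.2926. No gap separated the genes on either side of the limit.

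**Figure D1:**
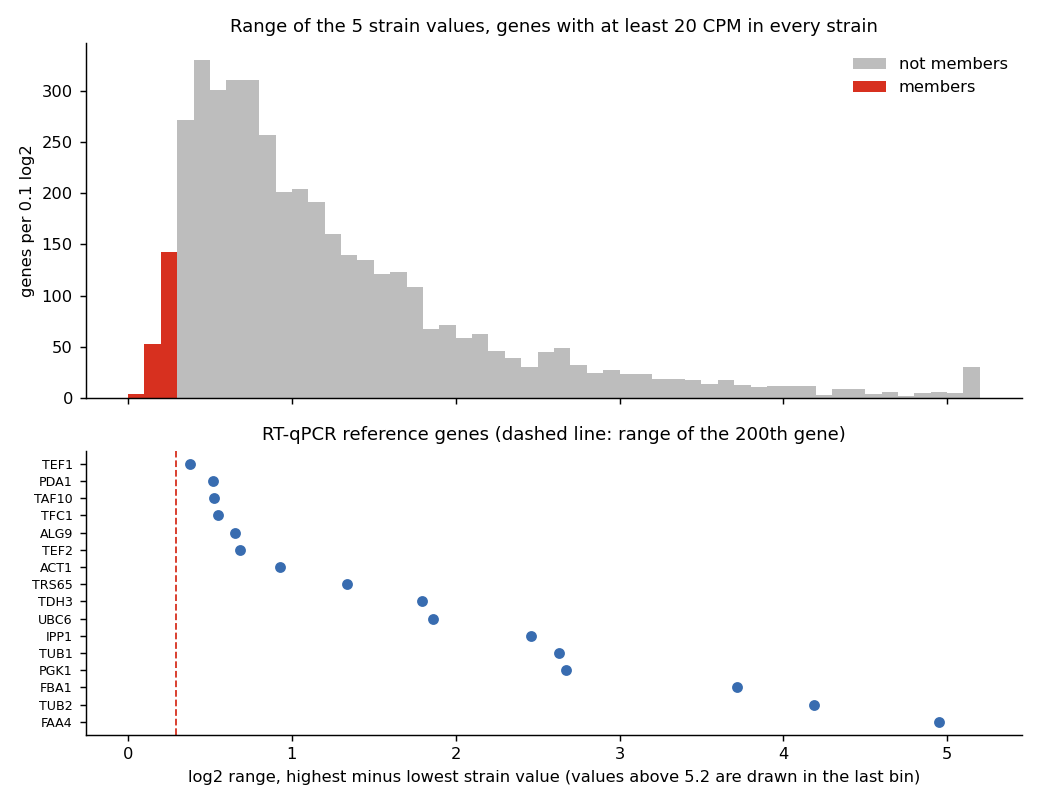
Upper panel: number of genes (y axis) in bins of 0.1 log2 of the range over 5 strain levels (x axis), for members in red and the other genes with at least 20 CPM in every strain in grey. Lower panel: the range of each of 16 RT-qPCR reference genes, all to the right of the dashed line at the range of the 200th gene, 0.290.

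The 12 flattest members covered tRNA modification, transcription, mitochondrial translation, protein turnover, replication, lipid modification of proteins and nucleobase salvage. GCD14 (YJL125C), the catalytic subunit of the methyltransferase that modifies an adenosine of tRNAs, had the smallest range, 0.0818 log2. It had 32.6, 41.3 and 41.8 CPM in BY47419, 35.7, 40.1 and 43.4 in C0, 32.4, 44.1 and 39.6 in C3-06, 35.3, 35.9 and 41.4 in C5-63 and 34.8, 42.5 and 41.2 in C7-143. Its libraries overlapped across all 5 strains, and its SD between libraries of a strain, 0.170 log2, was larger than its range. SRB4 (YER022W), a subunit of the head of the Mediator complex that links activators to RNA polymerase II, had a range of 0.0819. It had 55.2, 66.7 and 59.2 CPM in BY47419, 66.5, 58.5 and 65.9 in C0, 63.96, 61.03 and 64.9 in C3-06, 60.9, 64.7 and 64.6 in C5-63 and 57.1, 61.3 and 73.4 in C7-143. Replicate 3 of C7-143 was its highest library and replicate 1 of BY47419 its lowest. TRM12 (YML005W), an enzyme of wybutosine synthesis on phenylalanine tRNA, had a range of 0.0883. It had 29.7, 30.4 and 29.5 CPM in BY47419, 28.9, 26.9 and 33.6 in C0, 27.3, 30.01 and 31.4 in C3-06, 31.03, 28.03 and 34.9 in C5-63 and 28.4, 31.2 and 28.7 in C7-143. It was the least abundant of the 12, and the libraries of every pair of strains overlapped.

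**Figure D2:**
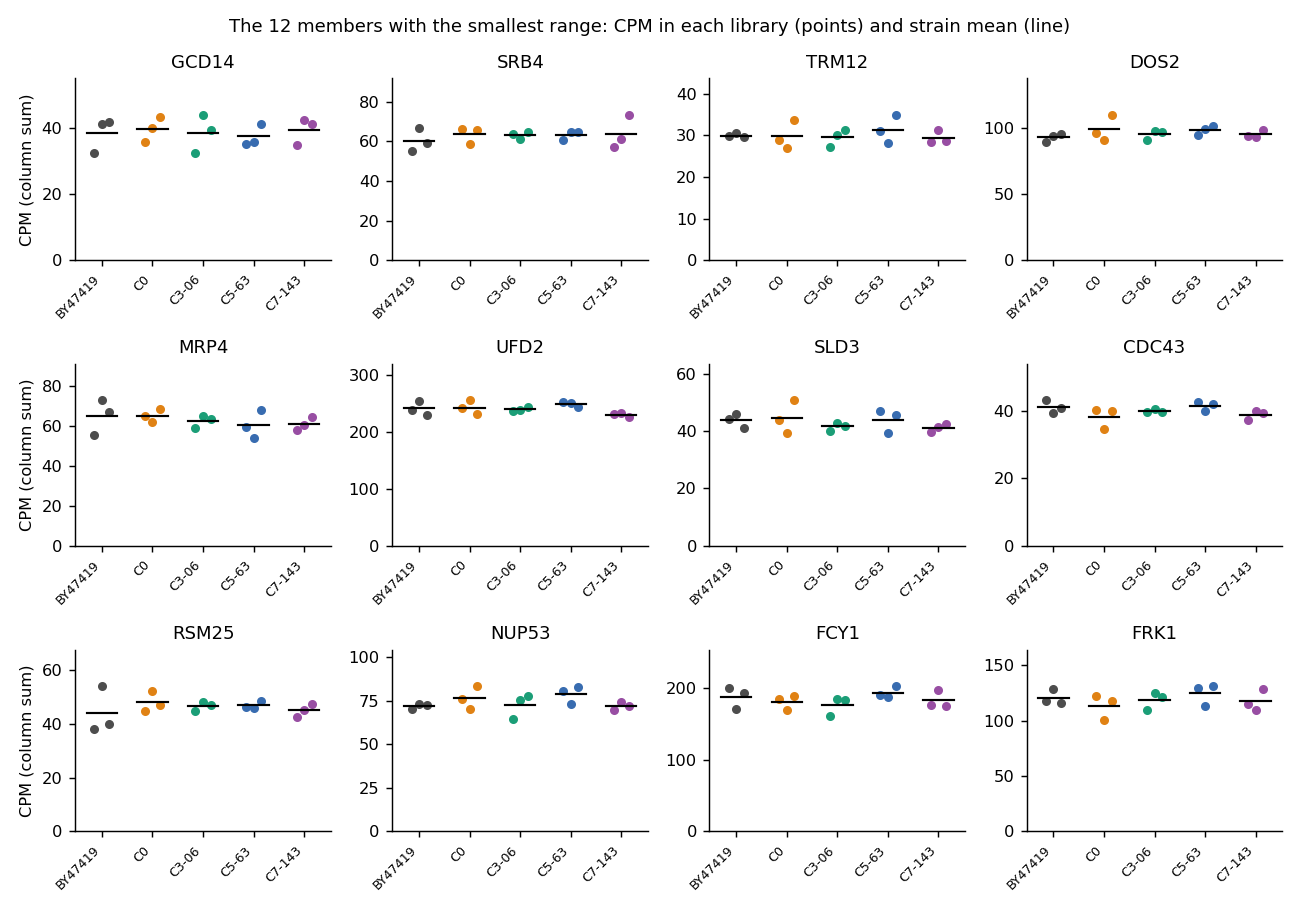
CPM (y axis, starting at 0) of the 12 members with the smallest range in each of 15 libraries (points) of the 5 strains (x axis), with the strain mean as a line. The 5 lines lie at nearly the same height in each panel, within a 1.06-fold to 1.10-fold range, while single libraries of a strain scatter around them.

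DOS2 (YDR068W) had a range of 0.0891 log2. It had 89.8, 93.9 and 95.5 CPM in BY47419, 96.4, 90.7 and 110.1 in C0, 91.2, 97.7 and 96.8 in C3-06, 94.7, 99.3 and 102 in C5-63 and 94.1, 93.4 and 98.8 in C7-143. Replicate 3 of C0 was its highest library and replicate 1 of BY47419 its lowest. MRP4 (YHL004W) encodes a protein of the small subunit of the mitochondrial ribosome and had a range of 0.108. It had 55.7, 72.9 and 66.9 CPM in BY47419, 64.8, 62.03 and 68.6 in C0, 58.9, 65.3 and 63.8 in C3-06, 59.3, 53.97 and 67.9 in C5-63 and 58.02, 60.3 and 64.3 in C7-143. The coding region of MRP4 overlaps YHL005C, and since no source used here states how strand was counted, reads of the pair cannot be told apart. UFD2 (YDL190C), which extends ubiquitin chains on substrates already carrying ubiquitin, was the most abundant of the 12 and varied least between libraries, with a within-strain SD of 0.0493 log2. It had 239, 255 and 231 CPM in BY47419, 242, 256 and 231 in C0, 237, 239 and 243 in C3-06, 253, 250.5 and 244 in C5-63 and 231, 233 and 226 in C7-143. Its lowest library was replicate 3 of C7-143, and all 3 C7-143 libraries lay below those of C5-63.

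SLD3 (YGL113W), an initiation factor of DNA replication, had a range of 0.115 log2. It had 44.1, 45.9 and 41.2 CPM in BY47419, 43.8, 39.1 and 50.7 in C0, 40.02, 42.9 and 41.8 in C3-06, 46.9, 39.3 and 45.5 in C5-63 and 39.6, 41.2 and 42.3 in C7-143. CDC43 (YGL155W), the β subunit of the enzyme that attaches a geranylgeranyl group, an isoprenoid, to small GTPases, had a range of 0.120. It had 43.1, 39.4 and 40.8 CPM in BY47419, 40.1, 34.4 and 39.9 in C0, 39.7, 40.4 and 39.6 in C3-06, 42.5, 40.01 and 42.1 in C5-63 and 37.2, 39.98 and 39.3 in C7-143. For both genes the libraries of the highest and the lowest strain overlapped. RSM25 (YIL093C), also of the mitochondrial small subunit, averaged 48.1 ± 3.70 CPM in C0, its highest strain, and 43.995 ± 8.85 CPM in BY47419, its lowest (SD, n = 3 each). NUP53 (YMR153W), a nucleoporin, averaged 78.9 ± 5.10 CPM in C5-63, the highest strain, and 72.1 ± 1.43 CPM in BY47419, the lowest. FCY1 (YPR062W), cytosine deaminase, averaged 194 ± 8.46 CPM in C5-63, the highest, and 177 ± 13.4 CPM in C3-06, the lowest. FRK1 (YPL141C), a protein kinase, averaged 125 ± 10.03 CPM in C5-63 and 113 ± 11.1 CPM in C0. The replicates of the highest and the lowest strain overlapped for RSM25, NUP53 and FRK1 and did not for FCY1.

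The spread between the libraries of a strain did not enter the rule directly, but it adds to the range of the strain means. A smaller spread in members is therefore partly built into the choice. The median spread over members was 0.0978 log2, beside 0.115 for the other 4002 genes above the minimum level. The median biological coefficient of variation estimated by edgeR was 6.38% for members and 7.31% for the others. A member's range, which the rule made small, was a median of 2.38 times its own within-strain SD, beside 9.22 times for the others. For 7 members the range was below their SD, and 49 members (24.5%) had a range of at least 3 times their SD, beside 95.5% of the others. The members with the smallest spread were HRD3, a component of the ligase of endoplasmic reticulum-associated degradation, at 0.0398 log2, PPH21, a protein phosphatase catalytic subunit, at 0.0422, NEO1, a phospholipid flippase, at 0.0426, and EDE1, an early endocytosis factor, at 0.0427. The largest spread was that of RLP7, a nucleolar protein of ribosome assembly, at 0.215, followed by MBA1, a mitochondrial ribosome receptor, at 0.197, BUD27, an unconventional prefoldin, at 0.187, and BUD8, a cue for bud site selection, at 0.187. HRD3 had 127, 129 and 122 CPM in BY47419, 119, 115 and 123 in C0, 133, 135 and 144 in C3-06, 138, 136 and 135 in C5-63 and 118, 119 and 118 in C7-143. Replicates of HRD3 lay close together, so its highest strain, C3-06, did not overlap its lowest, C7-143, although both means were within 1.16-fold. RLP7 had 39.9, 39.4 and 45.5 CPM in BY47419, 40.8, 33.5 and 44.9 in C0, 40.4, 52.95 and 47.6 in C3-06, 39.4, 38.2 and 55.3 in C5-63 and 40.2, 55.4 and 44.8 in C7-143. All 5 strains overlapped for RLP7.

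The members depended on the scale more than on any other choice tried. TMM scaling sets each library against the bulk of its genes and divides by the product of its total and a factor. Those factors were 0.804 to 0.890 in the BY47419 libraries, 0.916 to 0.967 in C0, 1.01 to 1.11 in C3-06, 1.11 to 1.197 in C5-63 and 0.995 to 1.05 in C7-143. Between the mean factors of C5-63 and BY47419 the difference was 0.46 log2, which is more than the whole range of any member. With the same rule applied to TMM-scaled CPM, 17 of the 200 were chosen again, and 14 with RLE factors. On that scale the members' ranges ran from 0.176 to 0.719 log2 with a median of 0.436, the 200th gene stood at 0.267, and the median of the 4304 genes above the minimum was 0.940. BY47419 was the highest strain for 169 members and C0 for 31, and the lowest was C3-06 for 86, C5-63 for 77 and C7-143 for 37. For all 200 members the lowest strain on the TMM scale was thus an evolved one and the highest was BY47419 or C0. This order largely follows from the choice. Members were chosen as flat in read share and then divided by factors averaging 0.841 in BY47419, 0.934 in C0, 1.07 in C3-06, 1.15 in C5-63 and 1.03 in C7-143.

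The edgeR quasi-likelihood test with TMM scaling was run over 5814 genes, and the 3 comparisons with C0 share its libraries. In C0 against BY47419, 50 of 200 members were called at an adjusted p below 0.05, all lower and 0 higher, beside 30.3% of all genes tested (18% lower and 12.2% higher). In C3-06 against C0, 150 members were called, all lower, beside 80.5% of all genes (39.4% lower and 41.1% higher). In C5-63 against C0, 159 were called, all lower, beside 83.1% (41.8% lower and 41.4% higher). In C7-143 against C0, 125 were called, all lower, beside 86% (43.3% lower and 42.7% higher). A joint test of the 5 strains called 192 members (96%), beside 96% of all genes. The members were chosen on these contrasts, so the counts describe the choice. All 200 members passed the filter on low counts. At an unadjusted p below 0.05, 0 members were higher in any of the 4 comparisons, and DESeq2 and limma-voom called 0 higher as well. Those fits also scale by library composition, so the direction of the calls largely follows from the factors and the choice. Leaving out a library moved the count of 50 by over 1.5 times in 6 cases, and the calls over all genes, 1761 in the full fit, fell as well. Without replicate 1 of BY47419, 20 members and 945 of 5818 genes were called, and without its replicate 3, 25 members and 1014 of 5816 genes. Without replicate 2 of C0, 16 members and 1027 of 5816 genes were called, and without its replicate 3, 29 members and 1238 of 5817 genes. Without replicate 3 of C5-63, 29 members and 1604 of 5817 genes were called, and without replicate 1 of C7-143, 29 members and 1586 of 5817 genes. Of the libraries that stood apart, leaving out replicate 2 of BY47419 gave 66 members in C0 against BY47419, 2 higher and 64 lower, and 2223 of 5817 genes. Leaving out replicate 1 of C3-06 gave 136 members in C3-06 against C0 and 4638 of 5817 genes.

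With library totals alone in the same fit, the scale of the rule, the split changed. In C0 against BY47419, 7 members were called, 7 higher and 0 lower, beside 27.5% of all genes (22% higher and 5.47% lower), and 2 members were lower at an unadjusted p below 0.05. In C3-06 against C0, 39 were called, 10 higher and 29 lower, beside 77.8% (48.5% higher and 29.3% lower). In C5-63 against C0, 30 were called, 21 higher and 9 lower, beside 81.2% (52.2% higher and 29% lower). In C7-143 against C0, 46 were called, 11 higher and 35 lower, beside 83.6% (46.2% higher and 37.4% lower). The joint test called 74 members, beside 95.4% of all genes. The members' median log2 fold change was 0.03 in C0 against BY47419, -0.05 in C3-06, 0.03 in C5-63 and -0.07 in C7-143 against C0 with library totals, and -0.115, -0.25, -0.27 and -0.21 with TMM. The medians of all genes tested were 0.13, 0.22, 0.30 and 0.12 with library totals and -0.02, 0.02, -0.0046 and -0.02 with TMM. The members' median thus lay below that of all genes on both scales.

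**Figure D3:**
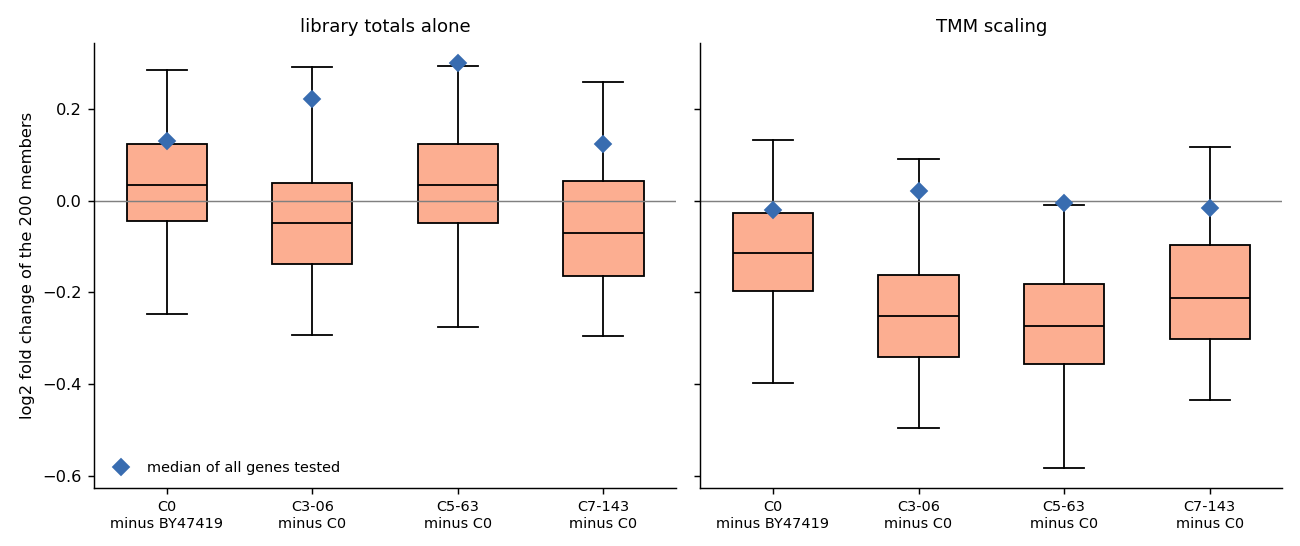
Log2 fold change (y axis) of the 200 members in 4 comparisons (x axis) from edgeR with library totals alone (left) and with TMM scaling (right). Boxes span the quartiles with the median as a line, whiskers reach the lowest and highest member, and diamonds mark the median of all 5814 genes tested. Boxes straddle 0 on the left and lie below it on the right, and the diamonds lie above the box medians in both panels.

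SLG1, CDC25 and NUS1, 3 members in all, were chosen under every alternative of scale, strain level, measure and library left out, and they were singled out after their values were seen. SLG1 (YOR008C) is a plasma membrane sensor of cell wall stress. It had 222, 269 and 237 CPM in BY47419, 237, 257 and 257 in C0, 262, 283 and 281 in C3-06, 279.9, 279 and 281 in C5-63 and 251, 253 and 265 in C7-143. Its mean was highest in C5-63 and lowest in BY47419, where replicate 2 stood above the other 2 libraries. CDC25 (YLR310C) is the guanine nucleotide exchange factor that activates Ras. It had 184, 221 and 201 CPM in BY47419, 221, 211 and 231 in C0, 225, 242 and 233 in C3-06, 227, 221 and 242 in C5-63 and 194, 218 and 214 in C7-143. Its C3-06 libraries lay above all of those of C7-143 and BY47419. NUS1 (YDL193W) is a subunit of the cis-prenyltransferase that makes dolichol precursors from farnesyl diphosphate, a precursor of carotenoids as well. It had 106, 112 and 112 CPM in BY47419, 118, 129 and 128 in C0, 119.9, 127 and 134 in C3-06, 131, 129 and 135 in C5-63 and 117, 114 and 114 in C7-143. The BY47419 libraries of NUS1 lay below all others and those of C5-63 near the top. Their ranges were 0.205, 0.208 and 0.252 log2 on the scale of read shares.

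The members together took 2.58% ± 0.08 of reads in BY47419, 2.66% ± 0.05 in C0, 2.58% ± 0.11 in C3-06, 2.72% ± 0.09 in C5-63 and 2.54% ± 0.06 in C7-143 (SD, n = 3 each). Single libraries ran from 2.45% in replicate 1 of C3-06 to 2.80% in replicate 3 of C5-63. Within the narrow range, C5-63 was the highest strain for 78 members, C0 for 50, BY47419 for 31, C3-06 for 23 and C7-143 for 18. The lowest strain was C7-143 for 64 members, C3-06 for 60, BY47419 for 46, C0 for 20 and C5-63 for 10. The most frequent pair was C5-63 highest and C3-06 lowest, in 25 members. All 3 evolved strains lay above both BY47419 and C0 in 23 members and below both in 25, beside 1802 and 1367 of the other 4002 genes. The level rose at every step along BY47419, C0, C3-06, C5-63 and C7-143 in 1 member and fell at every step in 2, beside 623 and 429 of the others. The rule makes such orders small by construction, and no test was made of them.

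For each strain, the members given next are the 2 with the lowest adjusted p of the joint edgeR test with TMM scaling. They were picked among those highest in that strain on read shares. That adjusted p ran from 3.5e-08 for UBR1 to 5.2e-05 for ALO1. In the joint test with library totals alone it ran from 0.0059 for GBP2 to 0.278 for ALO1, and members outside this pick were lower, such as SHP1 (0.0015) and CRM1 (0.0016). The pick thus rests on the TMM factors as well. UBR1, the ligase that recognises destabilising N-terminal residues, was lowest in C7-143 (139.5 ± 7.07 CPM) and highest in BY47419 (169.7 ± 6.77 CPM). UBR1 had 168, 177 and 164 CPM in BY47419, 175, 151 and 171 in C0, 141, 164 and 158 in C3-06, 145, 144 and 149 in C5-63 and 131, 144 and 143 in C7-143. Its BY47419 libraries lay above all of those of C7-143. SIN3, the scaffold of a histone deacetylase complex, was lowest in C7-143 (180.4 ± 2.69 CPM) and highest in BY47419 (216 ± 12.4 CPM). SEC3, an exocyst subunit, was lowest in C3-06 (144 ± 8.92 CPM) and highest in C0 (167 ± 6.85 CPM). TFB4 was lowest in C7-143 (51.5 ± 2.14 CPM) and highest in C0 (63.1 ± 2.47 CPM). In all 4 of these genes the 3 libraries of the lowest strain lay below all 3 of the highest, although the means differed by at most 1.22-fold.

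GBP2, an RNA-binding protein of mRNA export, was lowest in C7-143 (180.2 ± 9.14 CPM) and highest in C3-06 (214 ± 3.91 CPM). GBP2 had 211, 214 and 208 CPM in BY47419, 204, 202 and 214 in C0, 209.7, 214 and 218 in C3-06, 203, 202 and 209.9 in C5-63 and 171, 179.5 and 189.7 in C7-143. The first 4 strains overlapped and C7-143 lay below all of them. CHC1, the clathrin heavy chain, was lowest in C5-63 (253 ± 3.92 CPM) and highest in C3-06 (309 ± 9.73 CPM). PDX1, a structural component of the pyruvate dehydrogenase complex, was highest in C5-63 (251 ± 5.65 CPM) and lowest in C3-06 (219 ± 7.54 CPM). FYV8 was lowest in C7-143 (94.1 ± 4.01 CPM) and highest in C5-63 (115 ± 7.02 CPM). ALO1, an arabinonolactone oxidase, was highest in C7-143 (181 ± 2.22 CPM) and lowest in C3-06 (157 ± 10.3 CPM). EDC3, an activator of decapping, was highest in C7-143 (143 ± 4.14 CPM) and lowest in C3-06 (117 ± 5.63 CPM). For PDX1 and ALO1 the lowest of all 15 libraries was replicate 1 of C3-06, which stood apart from the rest, and its part in their order was not tested.

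By role, 102 of the 200 members fell in at least 1 of 40 gene lists and 98 in none, beside 1649 of all 4202 genes above the minimum level in a list. The members were 4.76% of those 4202 genes. Members were in a list more often than the 4202 genes at large, so 4.76% is a low base for the share of any list. The lists do not hold every gene of a role, so each count is of its list alone. By share, the smaller lists of RNA polymerases I and III (15%, 3 of 20) and Mediator (14.3%, 3 of 21) came first. By number, ubiquitin conjugation and deubiquitination held the most, 11 of 83 genes above the minimum (13.3%). Besides UFD2, UBR1 and HRD3 these were UFD4, a ligase of the ubiquitin fusion degradation pathway, UBP2 and UBP12, ubiquitin proteases, SHP1, a cofactor of the Cdc48 segregase, DER1, of endoplasmic reticulum-associated degradation, UBA2, of the SUMO-activating enzyme, and SIZ1 and NFI1, SUMO ligases. UFD4 had 154, 163 and 153 CPM in BY47419, 157, 145 and 153 in C0, 133, 139.7 and 151 in C3-06, 146, 140.3 and 154 in C5-63 and 146, 152 and 151 in C7-143. SHP1, the most abundant of them, averaged 485 ± 10.4 CPM in BY47419, 493 ± 7.75 in C0, 424 ± 18.1 in C3-06, 515 ± 17.97 in C5-63 and 439 ± 12.2 in C7-143. The SHP1 libraries of C3-06 and C7-143 lay below those of the other 3 strains. The median range of the whole list was 0.778 log2, and its genes ran from 0.115 to 2.44, so most of the list was not flat.

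**Figure D4:**
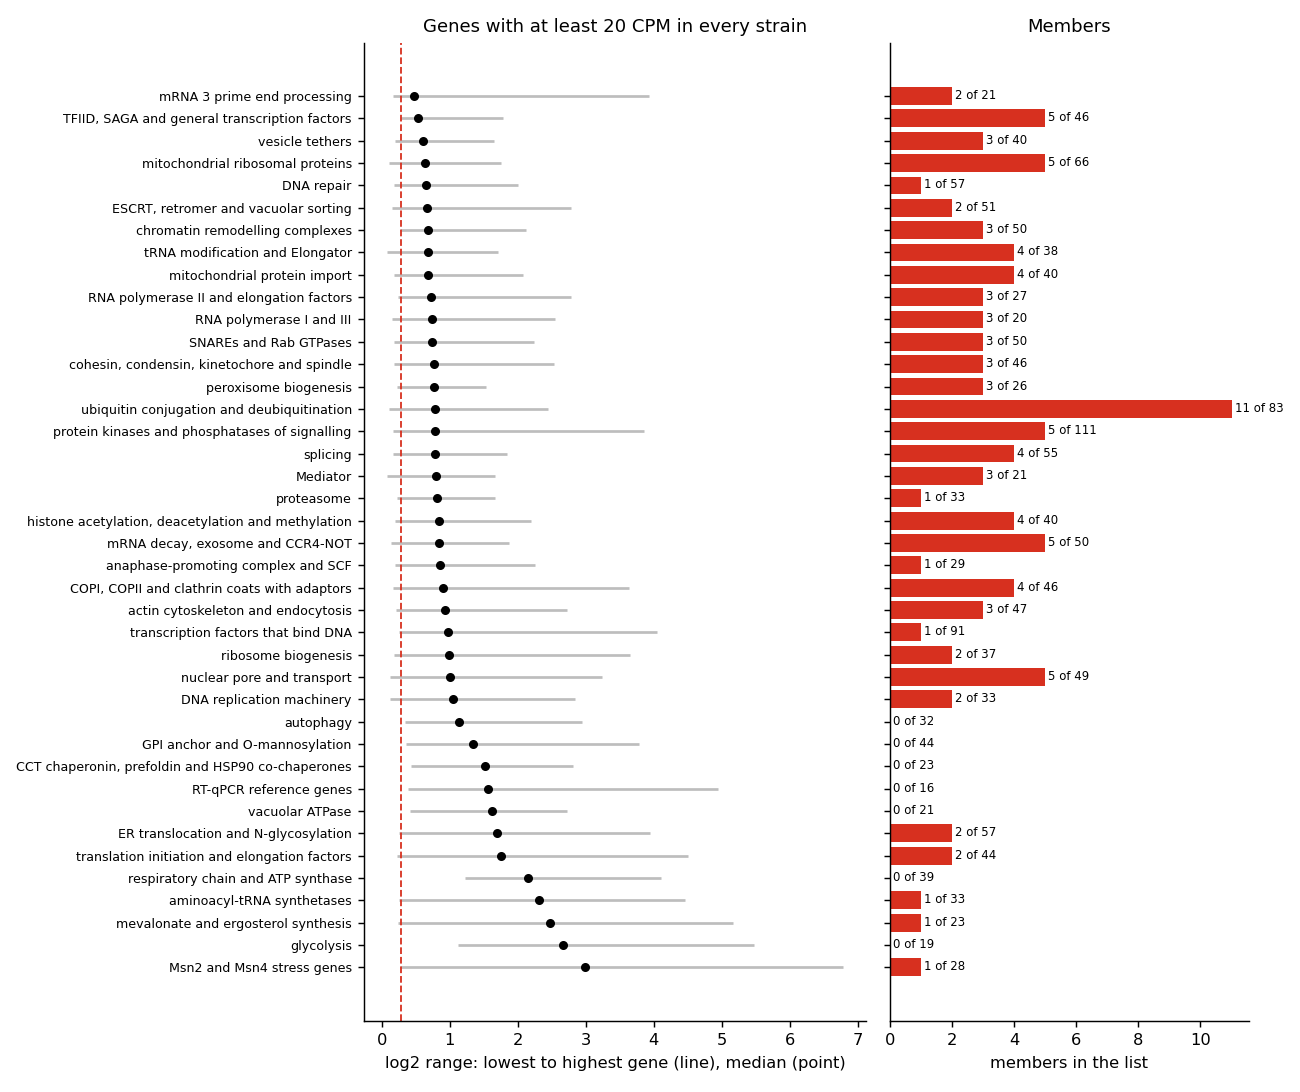
Left: range over 5 strain levels (x axis, log2) of the genes with at least 20 CPM in every strain in each of 40 lists (y axis), with the lowest to highest gene as a line, the median as a point and the range of the 200th gene, 0.290, as a dashed line. Right: number of members in each list (bars), with the number of genes above the minimum written beside it, from 11 of 83 for the ubiquitin list down to 0 in 7 lists.

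Transcription and chromatin held several members. Of TFIID, SAGA and general factors, 5 of 46 were members: TAF12, TAF2 and TAF11, subunits of TFIID, with TAF12 also in SAGA, BDF1, a bromodomain protein associated with TFIID, and TFB4. TAF12 averaged 219.6 ± 4.73 CPM in BY47419, 214 ± 14.1 in C0, 188 ± 17.96 in C3-06, 229 ± 11.98 in C5-63 and 213 ± 7.42 in C7-143. BDF1 averaged 175 ± 10.9 CPM in BY47419, 191 ± 5.04 in C0, 173 ± 16.3 in C3-06, 204 ± 12.6 in C5-63 and 169.9 ± 14.9 in C7-143. Both were highest in C5-63. TAF2 overlaps YCR041W, and reads of that pair cannot be told apart. Mediator held 3 of 21 (SRB4, SSN2 and PGD1), and RNA polymerase II with elongation factors 3 of 27 (SPT6, CTK1 and BUR2). The list of RNA polymerases I and III held 3 of 20. These were RPO31 and RPC37, subunits of polymerase III, and TFC4, a subunit of the transcription factor TFIIIC. Histone acetylation, deacetylation and methylation held 4 of 40. SET1, a histone methyltransferase, averaged 66.1 ± 2.04 CPM in C3-06, its lowest strain, and 75.9 ± 9.90 CPM in C0, its highest. HOS3, a deacetylase, and SAS3, an acetyltransferase, had ranges of 0.226 and 0.241 log2. Of the 91 genes above the minimum in the list of DNA-binding transcription factors, 1 was a member, STB3. That list is not complete. Members of this class outside it include HAL9 (YOL089C), HOT1 (YMR172W) and STB4 (YMR019W).

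RNA metabolism was represented at several stages. mRNA decay held 5 of 50: RRP6 and RRP40 of the nuclear exosome and its core, SKI3 of the Ski complex, UPF3 of nonsense-mediated decay, and EDC3. RRP6 had 81.1, 73.2 and 75.4 CPM in BY47419, 82.3, 70.2 and 74.97 in C0, 79.2, 83.5 and 85.2 in C3-06, 78.8, 72.9 and 89.8 in C5-63 and 74.5, 90.3 and 85.8 in C7-143. The strains overlapped for RRP6, whose range was 0.138 log2. Splicing held 4 of 55: PRP5, a helicase of the prespliceosome, DIB1 and SNU66, of the tri-snRNP, and CWC15. tRNA modification held 4 of 38, which were GCD14 and TRM12 with ELP4 and IKI1 of the Elongator complex, at 0.259 and 0.211 log2. Nuclear pore and transport held 5 of 49. MSN5 and CRM1 are exporters, MTR10 is an importer, and NUP159 is a nucleoporin of the cytoplasmic face, beside NUP53. CRM1 averaged 232 ± 14.9 CPM in BY47419, 229.9 ± 5.89 in C0, 267 ± 6.62 in C3-06, 239 ± 2.90 in C5-63 and 275 ± 12.4 in C7-143. It was highest in C7-143 and C3-06. MSN5 averaged 298 ± 16.6 CPM in BY47419, 309 ± 13.6 in C0, 271 ± 10.9 in C3-06, 279 ± 9.76 in C5-63 and 266 ± 0.84 in C7-143. MSN5 was highest in C0 and lowest in C7-143.

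Among the mitochondrial lists, members came from protein synthesis and import. Mitochondrial ribosomal proteins held 5 of 66 (MRP4, RSM25, RSM18, MRPS28 and IMG2), and the median range of that list was 0.631 log2. Import held 4 of 40: TIM44 of the import motor, TIM54 and TIM22 of the carrier translocase, and OCT1, a processing peptidase. TIM22 averaged 44.4 ± 3.83 CPM in BY47419, 47.3 ± 4.36 in C0, 49.7 ± 7.65 in C3-06, 47.8 ± 3.93 in C5-63 and 50.2 ± 3.46 in C7-143. TIM54 averaged 131 ± 3.36 CPM in BY47419, 118 ± 5.68 in C0, 121 ± 13.2 in C3-06, 127 ± 9.10 in C5-63 and 112 ± 4.19 in C7-143. TIM22 was lowest and TIM54 highest in BY47419. The respiratory chain and ATP synthase held 0 of 39, with a list median of 2.16 log2.

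Trafficking and signalling added further members. Vesicle coats and adaptors held 4 of 46, which were CHC1 and the adaptor subunits APL1, APL2 and APL5. APL2 averaged 149.9 ± 3.81 CPM in BY47419, 157 ± 7.59 in C0, 140.4 ± 9.08 in C3-06, 158 ± 10.4 in C5-63 and 143 ± 3.23 in C7-143. Its range was 0.169 log2, with C5-63 highest. Kinases and phosphatases of signalling held 5 of 111: PPH21, AKL1 of actin regulation, CKB1 of casein kinase II, IRE1, the sensor of unfolded proteins in the endoplasmic reticulum, and TOR2, a growth-regulating kinase. IRE1 averaged 74.9 ± 6.69 CPM in BY47419, 79.8 ± 5.01 in C0, 78.9 ± 10.4 in C3-06, 74.6 ± 6.74 in C5-63 and 70.9 ± 1.96 in C7-143. The C7-143 libraries of IRE1 lay below all of those of C0 and overlapped the other strains. AKL1 averaged 261 ± 14.1 CPM in BY47419, 301 ± 7.71 in C0, 267 ± 5.88 in C3-06, 259 ± 12.3 in C5-63 and 256 ± 4.41 in C7-143. All C0 libraries of AKL1 lay above those of the other 4 strains.

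Lists without a member were the CCT chaperonin, prefoldin and HSP90 co-chaperones (0 of 23), GPI anchor and O-mannosylation (0 of 44) and autophagy (0 of 32). Glycolysis (0 of 19), the vacuolar ATPase (0 of 21), the respiratory chain (0 of 39) and the RT-qPCR reference genes (0 of 16) held none either. BUD27, the unconventional prefoldin among the members, is not in the chaperonin list. Lists with 1 member included the mevalonate and ergosterol pathway (1 of 23, HMG2), the aminoacyl-tRNA synthetases (1 of 33, GLN4), the proteasome (1 of 33, RPN5) and the stress genes under Msn2 and Msn4 (1 of 28, TPS3). The median ranges of the first 2 of these lists were 2.47 and 2.31 log2, and that of the stress list 2.99. HMG2, GLN4 and TPS3 were thus the flat genes of lists with large ranges. ERG29, a gene of ergosterol synthesis, was also a member, with a range of 0.172 log2, but is not in the mevalonate and ergosterol list.

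Abundant members were few. The highest levels were those of ZEO1, a protein of the plasma membrane periphery, ARA1, an arabinose dehydrogenase, NAP1, a histone chaperone, PPN1, a polyphosphatase, TRX2, a cytosolic thioredoxin, and SHP1. ZEO1 had 1262, 978 and 1114 CPM in BY47419, 1284, 1301 and 1284 in C0, 1232, 1239 and 1280.2 in C3-06, 1112, 1179.8 and 1189.9 in C5-63 and 1115, 1275 and 1113 in C7-143. Replicate 2 of BY47419 was the lowest ZEO1 library, and the C0 libraries lay close together at the top. ARA1 had 999, 1043 and 985 CPM in BY47419, 1084, 1181 and 1051 in C0, 1250.5, 1126 and 1143 in C3-06, 1149, 1181 and 1113 in C5-63 and 932, 974 and 998 in C7-143. Its C7-143 libraries were the lowest as a group and overlapped those of BY47419. NAP1 averaged 607 ± 30.7 CPM in BY47419, 560.4 ± 14.8 in C0, 517 ± 48.3 in C3-06, 630.4 ± 25.96 in C5-63 and 602 ± 19.1 in C7-143. PPN1 averaged 561 ± 15.1 CPM in BY47419, 563 ± 16.1 in C0, 544 ± 22.3 in C3-06, 647 ± 25.7 in C5-63 and 553 ± 10.7 in C7-143. Both were highest in C5-63 and lowest in C3-06. The lowest means were those of MRH4, a helicase of mitochondrial ribosome assembly, with 22.01 CPM, NFI1 with 23.9 and the uncharacterised YMR187C with 24.0. With the 4202 genes split into 4 equal groups by mean CPM, from low to high, members were 5.99%, 5.05%, 4.86% and 3.14%.

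The genes often used as RT-qPCR references in yeast were not among the members. TEF1, a translation elongation factor, came nearest, with a range of 0.380 log2 and rank 438 of 4202. It had 1022, 957 and 996 CPM in BY47419, 966, 964 and 1011 in C0, 996, 1239.8 and 1188 in C3-06, 936, 949 and 1158 in C5-63 and 1209.9, 1434 and 1182 in C7-143. Its mean was highest in C7-143, and the spread between libraries was wide in the 3 evolved strains. TEF1 and TEF2 are close copies, both with a coding length of 1377 bases. Reads could be split between these copies, so the ranges of both are uncertain. PDA1, of pyruvate dehydrogenase, had a range of 0.516 and rank 875, TAF10, of TFIID, 0.526 and rank 906, TFC1, of TFIIIC, 0.549 and rank 970, and ALG9, a mannosyltransferase, 0.652 and rank 1285. ACT1, the actin gene, had a range of 0.926 and rank 2065. ACT1 averaged 1818 ± 231 CPM in BY47419, 1915 ± 59.02 in C0, 2431 ± 110.2 in C3-06, 2024 ± 40.6 in C5-63 and 3455 ± 49.7 in C7-143. Its mean was highest in C7-143. The remaining ones were TEF2 at 0.685, TRS65 at 1.33, TDH3 at 1.79, UBC6 at 1.86, IPP1 at 2.46, TUB1 at 2.63, PGK1 at 2.67, FBA1 at 3.72, TUB2 at 4.19 and FAA4 at 4.95 log2. The α- and β-tubulin and glycolytic genes thus differed several-fold between strains, against at most 1.22-fold for any member.

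Of the members, 41 had a closest related yeast protein with at least 30% identity, aligned over at least 50% of the longer protein of the pair. For 38 of these members the related gene was above the minimum level. Among those 38 related genes, 2 were members, the SUMO ligases SIZ1 and NFI1, which are each other's closest relative. The related genes had a median range of 0.905 log2, beside 0.948 for all 4202 genes. Of these 38 related genes, 16 had a range of at least 1 and 8 of at least 2. Among all 4202 genes, 52.5% had a range up to 1 and 83.9% up to 2, so the relatives varied much like genes at large. HMG2, an HMG-CoA reductase isozyme, had a range of 0.247 log2, and its relative HMG1, which the labels list as overexpressed in all strains but BY47419, had 4.84. HMG2 averaged 165 ± 3.12 CPM in BY47419, 165 ± 13.1 in C0, 169 ± 8.57 in C3-06, 172 ± 5.42 in C5-63 and 195 ± 3.57 in C7-143. HMG1 averaged 67.2 ± 6.46 CPM in BY47419, 1946 ± 90.2 in C0, 1072 ± 82.7 in C3-06, 601 ± 154 in C5-63 and 623 ± 93.8 in C7-143. HMG2 was highest in C7-143, whose 3 libraries lay above every other library, while HMG1 was highest in C0.

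**Figure D5:**
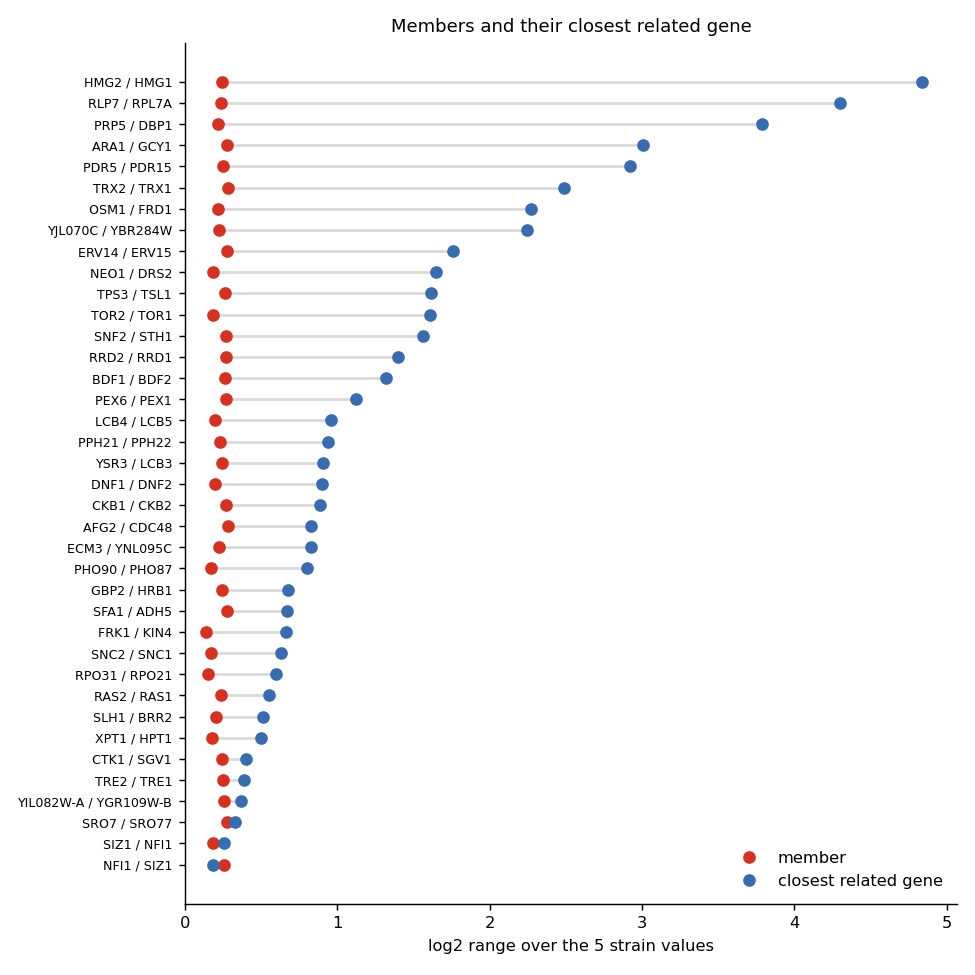
Range over 5 strain levels (x axis, log2) of members (red) and of their closest related gene (blue) for the 38 members whose relative had at least 20 CPM in every strain (y axis, member / relative). Red points lie at or below 0.290 by the rule, and 8 blue points lie at 2 or more, with HMG1 at 4.84 the farthest.

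Other pairs split in the same way, with 1 gene within the limit and its relative outside it. TRX2 and TRX1 are the cytosolic thioredoxins. TRX2 averaged 509 ± 6.79 CPM in BY47419, 462 ± 3.46 in C0, 514 ± 21.3 in C3-06, 563 ± 12.3 in C5-63 and 469 ± 37.8 in C7-143. TRX1 averaged 104 ± 19.3 CPM in BY47419, 140.4 ± 17.6 in C0, 359 ± 14.4 in C3-06, 459.8 ± 40.9 in C5-63 and 588 ± 33.5 in C7-143. TRX1 was highest in C7-143 and lowest in BY47419, a range of 2.49 log2. PDR5 and PDR15 are multidrug transporters of the plasma membrane. PDR5 averaged 205 ± 10.6 CPM in BY47419, 219 ± 5.25 in C0, 235 ± 22.7 in C3-06, 224 ± 16.7 in C5-63 and 245 ± 10.95 in C7-143. PDR15 averaged 435 ± 13.1 CPM in BY47419, 378 ± 15.8 in C0, 109 ± 3.94 in C3-06, 77.1 ± 2.06 in C5-63 and 56.6 ± 5.29 in C7-143. PDR15 was low in the 3 evolved strains and high in C0 and BY47419. TOR2 and TOR1 are the kinases at the core of the TOR complexes. TOR2 averaged 61.4 ± 2.85 CPM in BY47419, 65.8 ± 6.22 in C0, 63.5 ± 2.73 in C3-06, 60.6 ± 3.53 in C5-63 and 57.8 ± 4.62 in C7-143. TOR1 averaged 178 ± 5.75 CPM in BY47419, 149 ± 21.2 in C0, 62.7 ± 6.22 in C3-06, 71.01 ± 2.70 in C5-63 and 57.5 ± 3.51 in C7-143. TOR1 too was lower in the 3 evolved strains than in C0 and BY47419. TPS3 and TSL1 are regulatory subunits of trehalose synthase. TPS3 averaged 329.8 ± 39.8 CPM in BY47419, 371 ± 25.1 in C0, 375 ± 19.4 in C3-06, 396 ± 14.4 in C5-63 and 341 ± 16.8 in C7-143. TSL1 averaged 1637 ± 271 CPM in BY47419, 2556 ± 471 in C0, 2362 ± 511 in C3-06, 1379.7 ± 129 in C5-63 and 833 ± 91.4 in C7-143. The 2 genes differed in range, 0.262 log2 for TPS3 and 1.62 for TSL1. The values of 4 members with close copies are uncertain, since reads could be split between copies: YIL082W-A, 97.3% identical to YGR109W-B, SSF2, 94.0% identical to SSF1, YEL077C, 92.9% identical to YRF1-4, and PPH21, 87.8% identical to PPH22.

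The members had longer coding regions than the rest, with a median of 1872 bases beside 1350 for the other genes above the minimum level. With the 4202 genes split into 4 equal groups by range, from flat to variable, the median coding length was 1506, 1377, 1276.5 and 1302 bases. GC content of the coding region had a median of 38.8% in members and 40.0% in the others. Mean CPM had a median of 84.9 in members and 103 in the others, and per kilobase of coding length 45.4 and 79.7. A related protein at 30% identity or more was found for 20.5% of members and 28.9% of the 4202 genes. The coding sequence was in more than 1 piece for 4 members (2%) and for 4.33%, and 2 members (1%) lay within 30 kb of a chromosome end, beside 3.81%. In the deposited annotation, the nucleus was given for 95 members (47.5%) and 38.1% of the 4202 genes, and the mitochondrion for 20.5% and 22.4%. The cell wall was given for 0 members and 67 of the 4202 genes (1.59%), and the extracellular region for 0 members and 84 (2.00%).

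Every chromosome held members, from 3 on chromosome I to 27 on chromosome IV, or 2.70% of the genes above the minimum on chromosome VIII to 6.36% on chromosome VII. Neighbouring genes were both members in 6 places. They were ABD1 and PRP5, ADE8 and SIZ1, and RLP7 and DOM34, each pair transcribed away from a shared intergenic stretch, and PHO90 and UBP12, APL2 and OCT1, and GLN4 and LCB4 in other orientations.

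Motifs were searched on both strands in the 250 bases before the start codon, of which 16% of member windows and 15.7% of those of the 4202 genes overlapped another gene. A TATA box, taken as 8 exact octamers (TATAAAAA, TATAAAAG, TATAAATA, TATAAATG, TATATAAA, TATATAAG, TATATATA and TATATATG), was in 28% of member windows, 35.4% of windows of the 4202 genes and 36.3% of all windows. In the 4 groups by range, from flat to variable, the share was 29.6%, 34.0%, 35.2% and 42.7%. The shorter TATAAA, which overlaps several of the octamers, was in 37%, 42.6% and 43.4%. AGGGG, the STRE, was in 15% of member windows, 21.3% and 18.8%, and in the 4 groups by range in 17.9%, 21.1%, 21.2% and 24.9%. The shares of both elements were thus lower in flat than in variable genes of this table.

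Of the general regulatory factors, the Reb1 motif TTACCCG was in 10% of member windows, 8.09% of windows of the 4202 genes and 7.06% of all windows. The Abf1 motif was in 10.5%, 13.7% and 11.6%, and the Rap1 motif ACCCATACA in 0%, 0.333% and 0.385%. The elements of ribosome biogenesis genes were PAC, GCGATGAG, in 4.5%, 3.02% and 3.85%, and RRPE, AAAAATTTT, in 10%, 6.19% and 6.74%. TGACTCA, the motif of Gcn4, the activator of amino acid synthesis genes, was in 1%, 2.38% and 2.16%. GGTGGCAAA, the motif of Rpn4, the activator of proteasome genes, was in 0.5%, 1.45% and 1.12%. All of these shares describe the windows, and no test was made of them.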

How the data were processed

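Per the file headers, the authors' deposited table gives, for every gene and sample, a raw count of reads and an FPKM value. The submitters' processing notes name HISAT2, with no version; how reads were counted, with which strand setting and on which build is not given in the sources used here. The deposited counts, whole numbers, were used as they stand, and the deposited FPKM values were not used in any result. Of 5980 gene identifiers, 5977 are in the R64 annotation and 5972 have the same start and end there, as do all 200 members, so coordinates and upstream sequence are from R64. The lengths are coding lengths, since 99.2% of them are multiples of 3.

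The strain in each sample's title gave its group. Members were chosen from column-sum CPM as described above. The members and all gene lists were chosen with earlier results of these data known. Tests used edgeR 4.0.16 in R 4.3.3 (filterByExpr, TMM, robust quasi-likelihood fit of all 15 samples with strain as the factor, two-sided, Benjamini-Hochberg over 5814 genes), with limma 3.58.1 and DESeq2 1.42.0 as alternatives; the rule and the tests were tested on simulated data. Related proteins were found with BLAST 2.17.0 on translated coding regions. Named members are the 12 with the smallest range, the 6 most and 3 least abundant, those at the limit, up to 4 per list with at least 4 members, the 4 with the largest and smallest spread, and the 2 with the lowest joint p per highest strain, beside the RT-qPCR reference genes. Others were named after their values were seen. Depth, 16144808 to 21586409 reads, gave a counting error of 0.0354 log2 at the median member count, which covers counting error only. Same-numbered replicates deviated together in C0 against BY47419 alone (correlations of 0.116 to 0.321, others -0.268 to 0.132, limit 0.1). These ranges overlap, so the numbers may pair these libraries, but that is not established. The main fit used no pairing, and a fit with the replicate number as a block in all 5 strains is among the alternatives. Other alternatives were RLE factors, library totals alone, no filter, a filter of 5 CPM in 3 samples, an adjusted p below 0.01, only the strains compared, and each library left out.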

Additional observations from a re-analysis of the deposited data

How the results depend on the processing

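Of the 200 members, 17 were chosen again with TMM-scaled CPM and 14 with RLE. The other changes of the rule kept 195 (mean of logs), 198 (pseudocount 0), 172 (SD in place of range), 136 (range over 15 libraries, where the 200th gene stood at 0.468 log2), 188 (minimum 5 CPM) and 145 (minimum 50 CPM). Leaving out each library in turn kept 168 to 192, and 99 members were kept every time. The range of the 200th gene was then 0.279 to 0.307, and the median within-strain SD 0.0919 to 0.103.

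With library totals alone, members called were 7 in C0 against BY47419, 39, 30 and 46 in C3-06, C5-63 and C7-143 against C0, and 74 in the joint test. In C0 against BY47419, 13 were called at an adjusted p below 0.01, beside 813 of 5814 genes, and 10 in a fit of only these strains, beside 1122 of 5764, where the full fit called 1761 genes. Leaving out a library gave 16 to 66. The other counts ranged over 126 to 151 (C3-06), 138 to 160 (C5-63), 105 to 127 (C7-143) and 186 to 190 (joint test) with a library left out. The remaining alternatives moved no count by over 1.5 times.

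With the replicate block, 50 members were called in C0 against BY47419, beside 1782 of 5814 genes, and 190 in the joint test, beside 5575. Against C0, 149 were called in C3-06, 156 in C5-63 and 126 in C7-143, beside 4693, 4817 and 5004 genes, so the block changed no count by over 1.5 times. No spike-in is named in the sources used here, so which scale tracks RNA per cell was not tested, and reads of overlapping genes and near-identical copies cannot be told apart.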

Other observations

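The 200 genes that the same rule chooses on TMM-scaled CPM form a different group, with 17 members in common (8.5%). On read shares these genes had ranges of 0.205 to 0.707 log2, with a median of 0.443. Their median coding length was 1492.5 bases and their median level 72.0 CPM, beside 1872 bases and 84.9 CPM for the members. The ubiquitin list, which held 11 members, held 3 of the genes chosen on the TMM scale. Vesicle tethers held 7 of these genes beside 3 members, and ESCRT, retromer and vacuolar sorting 7 beside 2. The list of DNA-binding transcription factors, which is not complete, held 7 beside 1. Mitochondrial import and tRNA modification held 4 each on either scale. The makeup by role given above therefore holds for the scale of read shares.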
